A study of Mus musculus with 8 samples.

Results

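The genes described here are 9 members of the subpallial interneuron lineage, namely Dlx1, Dlx2, Dlx5, Dlx6, Lhx6, Nkx2-1, Sp9, Sst and Npas1. They were chosen by name from the 16397 genes of the deposited count table, and all 9 were found there. RNA was sequenced from E15.5 hippocampi of C57Bl/6J offspring of both sexes, with 4 samples in the intrauterine growth restriction (IUGR) group and 4 in the sham group. In the IUGR group, dams carried a micro-osmotic pump with U-46619, a thromboxane A2 analog that raises maternal blood pressure, from E12.5. Sham dams received a pump with vehicle at that age. The IUGR samples are named T1-1, T1-3, T1-4 and T1-5, and the sham samples S1-4, S1-6, S3-1 and S3-4. The sources used here do not say what the prefixes stand for, whether samples of a group shared a litter or whether samples were pooled, so the p values measure the spread between these samples only.

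The excitatory neurons of the hippocampus arise locally in the pallium. Its inhibitory interneurons arise in the ganglionic eminences of the subpallium, which lie below the cortex, and reach the hippocampus by tangential migration. The DLX homeodomain factors act across the ganglionic eminences and promote the GABAergic fate. NKX2-1 specifies the medial ganglionic eminence (MGE), LHX6 follows it in neurons that leave the MGE, and somatostatin is the neuropeptide of a major class of these neurons in the adult. NKX2-1 is normally switched off in interneurons that migrate to the cortex and kept on in neurons that stay in the basal forebrain. SP9 is a zinc finger factor of the ganglionic eminences, and NPAS1 is a bHLH-PAS factor found in a subset of interneurons.

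None of the 9 genes differed between IUGR and sham hippocampi beyond the spread between samples. Apart from Npas1 in the IUGR group, their levels varied widely within each group, and 7 of them (the 4 Dlx genes, Lhx6, Nkx2-1 and Sp9) varied together across samples of a group. Sst and Npas1 did not follow that pattern. The threshold for a call was an adjusted p no higher than 0.05 in edgeR's quasi-likelihood test together with a log2 fold change (log2FC, IUGR over sham) of 1 or more in size. SE denotes the standard error of a log2FC. All 9 genes passed the count filter, 0 of 9 were called and 0 had an unadjusted p under 0.05, whereas 1.46% of the 13707 tested protein-coding genes were called and 11.1% had an unadjusted p under 0.05. With DESeq2's Wald test 0 were called and 1, Sst, had an unadjusted p under 0.05 (DESeq2 adjusted p = 0.234), and with limma-voom both counts were 0. The groups overlapped for each of the 9 genes, while 7.14% of all tested genes had no overlap (5.06% lower and 2.08% higher in IUGR). The log2FC was above 0 for 6 genes and below 0 for 3, with a median of 0.11 beside −0.02 over all tested genes. This tally depended on the sham samples: against those of prefix S1 alone 1 gene (Sst) was above 0 and 8 were below, and against those of prefix S3 alone 8 were above and 1 (Npas1) was below.

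Total counts per sample were between 11212632 and 16672463, and the groups overlapped in depth. The same libraries carried a large difference in choroid plexus genes: all 11 tested genes of a list of 13 had log2FC values below 0, 4 of them were called, and the 13 together summed to 70.7 to 1325 CPM (counts scaled to library size) in the IUGR group against 5521 to 12161 CPM in the sham group. Its part in the values below was not tested. In bulk tissue, fewer interneurons and less RNA per interneuron cannot be told apart.

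Dlx1 and Dlx2 lie 9426 bases apart on opposite strands of chromosome 2 (GRCm38), Dlx1 at 71528113 to 71533981 and Dlx2 at 71543408 to 71546754. Both encode homeodomain factors that act early in subpallial progenitors. Dlx1 (ENSMUSG00000041911) had the highest level of the 9 genes per kilobase of exon, and it stood at 318, 188, 448 and 233 CPM in T1-1, T1-3, T1-4 and T1-5, and at 433, 314, 156 and 198 CPM in S1-4, S1-6, S3-1 and S3-4. Each group held samples near the bottom and near the top of this range. The log2FC of Dlx1 was 0.11 (SE 0.34, 95% interval −0.65 to 0.86, edgeR adjusted p = 1.00). On a linear scale the interval runs from 0.639-fold to 1.81-fold, so a doubling of Dlx1 lay outside it in the fit of all samples. That limit depends on the sham samples, since the log2FC was 0.44 (SE 0.33) without S1-4 and 0.77 (SE 0.35) against the S3 samples alone. Dlx1as (ENSMUSG00000084946), a noncoding RNA on the other strand, shares 335 exonic bases with Dlx1, and the counting program's strand setting is not given in the sources used here, so the counts of these genes may not be fully separate. Dlx1as ranged from 27.9 to 107 CPM in the IUGR group and from 41.4 to 141 CPM in the sham group, and its log2FC was 0.01 (SE 0.43) in the edgeR fit that included noncoding genes.

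Dlx2 (ENSMUSG00000023391) had 62.2, 36.1, 84.0 and 32.2 CPM in T1-1, T1-3, T1-4 and T1-5, and 53.6, 111, 22.4 and 57.5 CPM in S1-4, S1-6, S3-1 and S3-4. The lowest and the highest of the 8 values were both sham samples. For Dlx2 the log2FC was −0.19 (SE 0.44, 95% interval −1.16 to 0.78, edgeR adjusted p = 1.00).

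Dlx5 and Dlx6 form the other tandem pair, 9236 bases apart on opposite strands of chromosome 6, Dlx6 at 6863334 to 6868568 and Dlx5 at 6877805 to 6882085. Their factors act later than DLX1 and DLX2, as neurons leave the progenitor zones. Dlx5 (ENSMUSG00000029755) had 11.6, 15.9, 29.0 and 11.5 CPM in T1-1, T1-3, T1-4 and T1-5, and 18.9, 27.4, 5.41 and 11.4 CPM in S1-4, S1-6, S3-1 and S3-4. T1-4 and S1-6 were the high samples and S3-1 the low one. Its log2FC was 0.11 (SE 0.46, 95% interval −0.91 to 1.12, edgeR adjusted p = 1.00). Dlx6 (ENSMUSG00000029754) had 31.3, 19.0, 50.2 and 32.8 CPM in T1-1, T1-3, T1-4 and T1-5, and 43.4, 34.6, 17.5 and 15.1 CPM in S1-4, S1-6, S3-1 and S3-4. T1-4 was again the highest sample, and the S3 samples were the lowest. Its log2FC was 0.27 (SE 0.37, 95% interval −0.55 to 1.09, edgeR adjusted p = 1.00).

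Dlx6os1 (ENSMUSG00000090063, also known as Evf2), a noncoding RNA on the strand opposite to Dlx6, was far more abundant than Dlx6 in the same hippocampi. Per kilobase of exon it had 127 ± 49.8 CPM (SD, n = 8), against 12.8 ± 5.32 CPM (SD, n = 8) for Dlx6. The pair share 0 exonic bases in the annotation, although the gene bodies overlap. Dlx6os1 ranged from 369 to 937 CPM in the IUGR group and from 335 to 1059 CPM in the sham group, and its log2FC was 0.11 (SE 0.35) in the fit with noncoding genes. A further transcript on that strand, Dlx6os2, shares 104 exonic bases with Dlx6 and ranged from 1.91 to 4.30 CPM in the IUGR group and from 3.61 to 8.14 CPM in the sham group. Its log2FC was −0.86 (SE 0.36) with an adjusted p of 0.397 in the same edgeR fit, so it was not called.

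Sp9 (ENSMUSG00000068859, chromosome 2, 73271925 to 73284706) encodes the zinc finger factor of the set. It had 43.7, 22.2, 64.0 and 37.7 CPM in T1-1, T1-3, T1-4 and T1-5, and 71.5, 61.5, 37.6 and 31.4 CPM in S1-4, S1-6, S3-1 and S3-4. The S1 samples and T1-4 were the high ones. For Sp9 the log2FC was −0.27 (SE 0.33, 95% interval −1.01 to 0.47, edgeR adjusted p = 1.00). The end of Sp9 overlaps Cir1 on the other strand over 270 exonic bases, and Cir1 had counts of 52 to 154 per sample.

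**Figure D1:**
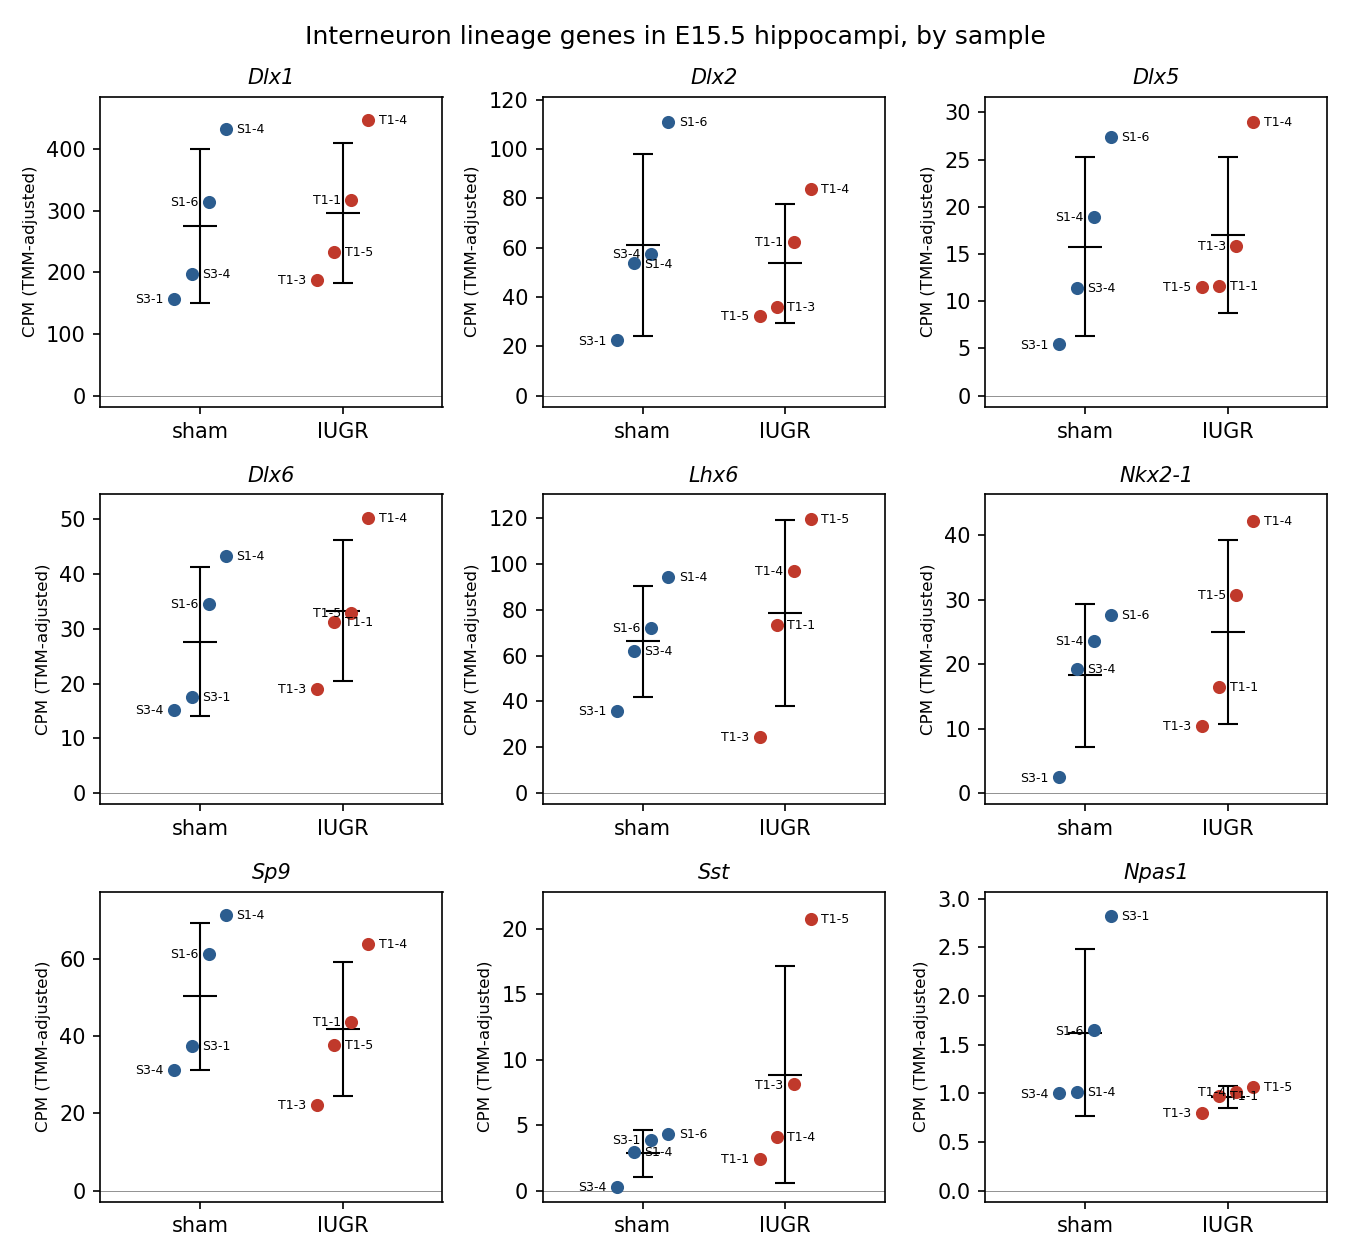
CPM of each of the 9 genes (vertical axes, TMM-adjusted, each panel with its own scale) in the 4 sham (blue) and 4 IUGR (red) samples, with the mean and SD of each group in black. The groups overlap in every panel, T1-4 is the highest IUGR sample for 6 genes, and Sst in T1-5 stands at 20.8 CPM against at most 8.11 in the other samples.

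Nkx2-1 and Lhx6 represent the MGE. Nkx2-1 (ENSMUSG00000001496, chromosome 12, 56531958 to 56536908) had 16.5, 10.4, 42.2 and 30.7 CPM in T1-1, T1-3, T1-4 and T1-5, and 23.6, 27.7, 2.43 and 19.3 CPM in S1-4, S1-6, S3-1 and S3-4. Its highest value was 17.4 times its lowest, and S3-1, with 31 counts, lay well below all other samples. The log2FC was 0.45 with a SE of 0.61, and its 95% interval ran from −0.90 to 1.80 (edgeR adjusted p = 1.00). Nkx2-1 also marks the hypothalamus, and of 13 listed genes of the diencephalon and hypothalamus 6 (among them Lhx9, Nkx2-2, Nkx2-4, Otp and Rax) were not among the genes of the table and the other 7 summed to 21.1 to 45.1 CPM in the IUGR group against 22.6 to 52.2 CPM in the sham group. The part of such tissue in the Nkx2-1 values was not tested.

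Lhx6 (ENSMUSG00000026890, chromosome 2, 36081953 to 36105408), a LIM homeodomain factor that MGE-derived interneurons keep during migration, had 73.5, 24.4, 96.9 and 120 CPM in T1-1, T1-3, T1-4 and T1-5. In sham hippocampi it had 94.5, 72.2, 36.0 and 61.9 CPM in S1-4, S1-6, S3-1 and S3-4. Both the lowest and the highest value came from the IUGR group. Lhx6 had a log2FC of 0.25 (SE 0.42, 95% interval −0.69 to 1.19, edgeR adjusted p = 1.00). Without T1-5 it was −0.027.

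Sst (ENSMUSG00000004366, chromosome 16, 23889573 to 23890958), which encodes the precursor of somatostatin, had the largest log2FC and the largest error of the set. It had 2.40, 8.11, 4.13 and 20.8 CPM in T1-1, T1-3, T1-4 and T1-5, and 2.96, 4.33, 3.84 and 0.29 CPM in S1-4, S1-6, S3-1 and S3-4. T1-5 was high, S3-4 (4 counts) was low, and T1-1 and T1-4 fell within the sham range. Its log2FC was 1.64 (SE 0.75, 95% interval −0.03 to 3.31, edgeR adjusted p = 0.466). Without T1-5 it was 0.79, and without S3-4 it was 1.25. The interval reaches from near 0 to a 9.94-fold higher level.

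Npas1 (ENSMUSG00000001988, chromosome 7, 16455721 to 16477728) was close to the count filter, with 11 to 36 counts per sample. It had 0.97, 0.80, 1.01 and 1.06 CPM in T1-1, T1-3, T1-4 and T1-5, and 1.02, 1.64, 2.82 and 1.00 CPM in S1-4, S1-6, S3-1 and S3-4. The IUGR samples lay close together, and the sham mean of 1.62 ± 0.86 CPM (SD, n = 4) was set apart from the IUGR mean of 0.96 ± 0.11 CPM (SD, n = 4) by S3-1 and S1-6. The log2FC was −0.75 (SE 0.40, 95% interval −1.65 to 0.14, edgeR adjusted p = 0.611), and −0.34 without S3-1. S3-1 was the lowest sample for 4 of the other 8 genes (Dlx1, Dlx2, Dlx5 and Nkx2-1) and the highest for Npas1.

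An exact two-sided permutation test of mean log2 CPM was also run for each gene alone, and p was between 0.171 (Npas1) and 0.886 (Dlx2). The smallest p that 4 against 4 allow is 0.0286.

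**Figure D2:**
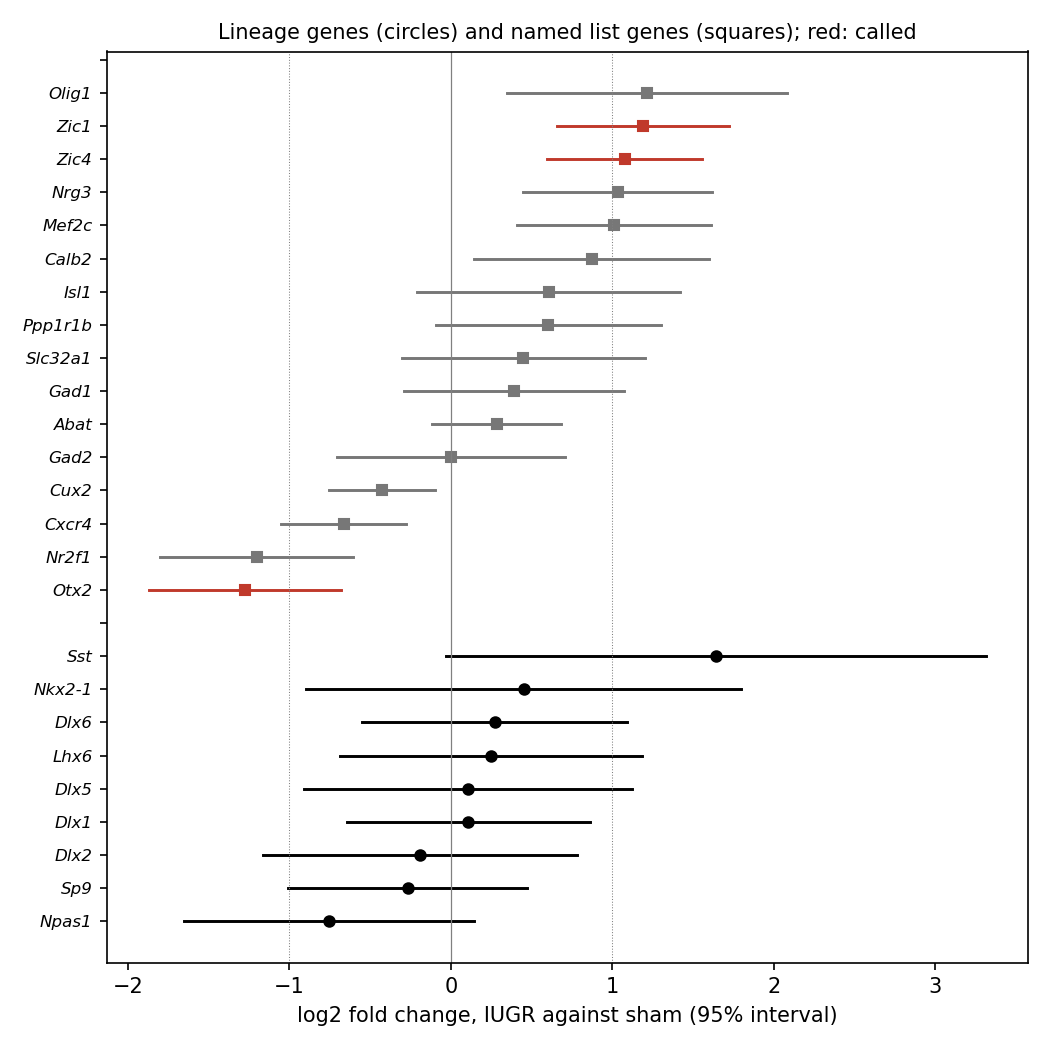
Log2FC values (horizontal axis, IUGR against sham) with 95% intervals from edgeR for the 9 lineage genes (circles) and the named genes of the wider lists (squares), called genes in red and dotted lines at −1 and 1. All 9 lineage intervals include 0, while Otx2, Zic1 and Zic4 are the called list genes.

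Compared with each other per kilobase of exon over the 8 samples, the order of levels was Dlx1 (53.0 ± 20.6 CPM per kilobase, SD, n = 8), Dlx2 (20.1 ± 10.2), Lhx6 (15.1 ± 6.61), Dlx6 (12.8 ± 5.32), Sp9 (9.16 ± 3.46), Sst (8.12 ± 8.90), Nkx2-1 (7.60 ± 4.36), Dlx5 (7.24 ± 3.65) and Npas1 (0.43 ± 0.22). Dlx1 at the top and Npas1 at the bottom were separated from their neighbours by more than 1 SD. From Dlx2 down to Dlx5, each neighbouring pair differed by less than the larger of their SDs. The place of Sst differed between the groups, with means of 12.3 CPM per kilobase in IUGR and 3.96 in sham samples, and without T1-5 its mean over the other samples was 5.16 ± 3.30 (SD, n = 7). For scale, Gad2, which encodes one of the glutamate decarboxylases that make GABA, had 24.1 ± 8.36 CPM per kilobase (SD, n = 8).

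The spread between samples of a group was large for these genes. The biological coefficient of variation, edgeR's estimate of the relative spread between samples beyond counting noise, had a median of 0.419 over the 9 genes and 0.213 over all tested genes. It was lowest for Sp9 (0.339) and Dlx1 (0.341), and each of these exceeded the value of at least 84.2% of tested genes. It was highest for Nkx2-1 (0.592) and Sst (0.717), above 97.6% and 98.8% of tested genes. Dlx1 had a mean count of 3596, so counting noise contributed little to its spread. The median SE of a log2FC was accordingly 0.42 for the 9 genes and 0.19 for all tested genes.

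**Figure D3:**
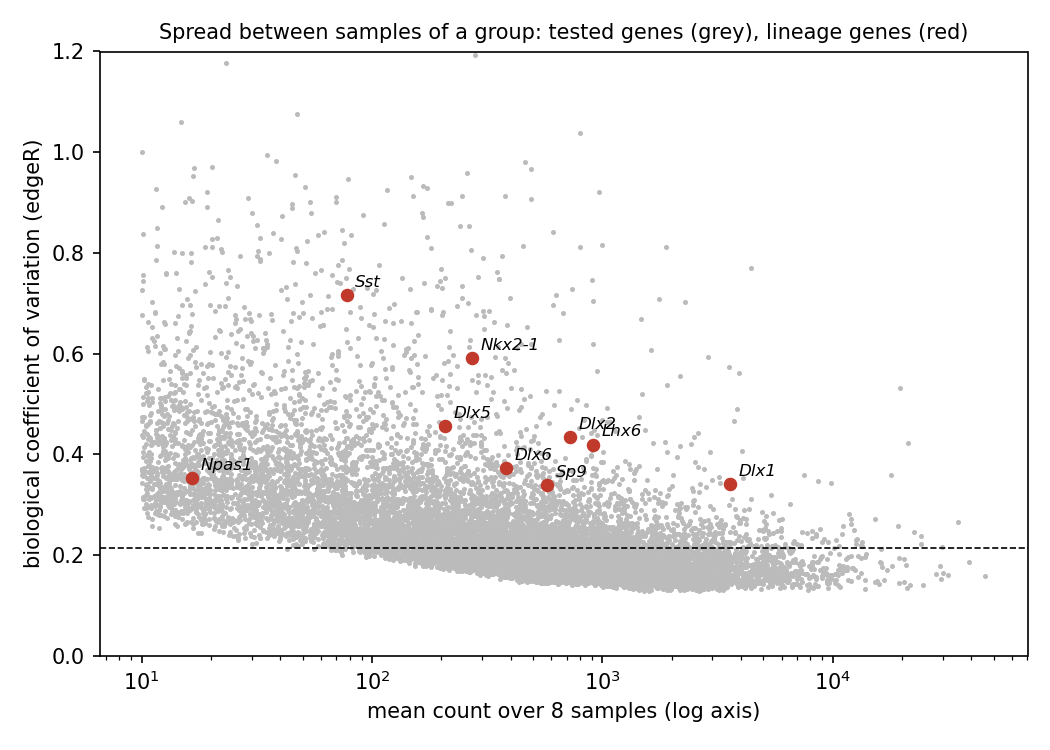
Biological coefficient of variation (vertical axis, edgeR) against mean count (horizontal log axis) for the tested genes in grey and the 9 lineage genes in red, with the median of all tested genes dashed. The 9 genes lie above the dashed line at 0.213, and 16 genes with values above 1.2 are outside the plotted range.

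The variation was shared by most of these genes. After each group's mean was removed, all 6 pairs among Dlx1, Dlx2, Dlx5 and Dlx6 varied in the same direction over the 8 samples (Pearson r from 0.58 to 0.93). So did all 21 pairs when Lhx6, Nkx2-1 and Sp9 were added (r from 0.37 to 0.97, median 0.74). Those pairs leave out Sst and Npas1, which did not follow. Over all 36 pairs of the set, 27 had r above 0, and the median r was 0.59. These values describe 8 libraries and are not tests, and each library's depth and tissue makeup enters every pair. The closest pair was Dlx6 and Sp9, which lie on different chromosomes (r = 0.97). The tandem pairs had r = 0.73 (Dlx1 and Dlx2) and 0.68 (Dlx5 and Dlx6). Dlx pairs on different chromosomes lay on both sides of these values. They had r = 0.93 (Dlx1 and Dlx6), 0.85 (Dlx2 and Dlx5), 0.76 (Dlx1 and Dlx5) and 0.58 (Dlx2 and Dlx6). Sst had a median r of 0.02 with the other 8 genes and Npas1 one of −0.28.

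T1-4 was the highest of the 8 samples for 4 of the 9 genes and among the highest 2 for 7 of them. S3-1 was the lowest for 4 genes and T1-3 for 3. In the sham group, both S1 samples lay above both S3 samples for 6 of the 9 genes (Dlx1, Dlx5, Dlx6, Lhx6, Nkx2-1 and Sp9), and 16.5% of all tested genes had that order. The mean of the S1 samples was 2.75 times that of the S3 samples for Dlx5, 2.39 times for Dlx6 and 2.11 times for Dlx1. This order was not tested, and since all IUGR samples carry the prefix T1, prefix and treatment cannot be told apart.

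**Figure D4:**
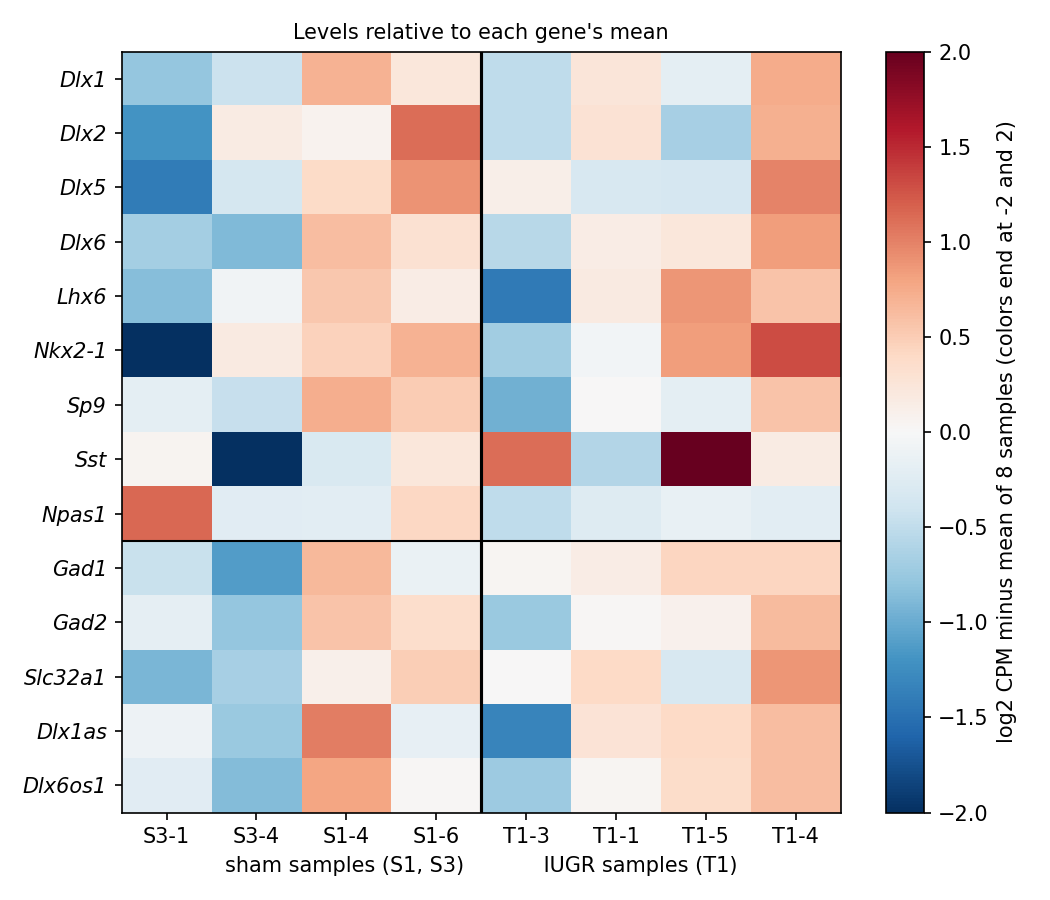
Log2 CPM of each gene minus its mean over the 8 samples (color scale, ending at −2 and 2), with sham samples to the left and IUGR samples to the right of the black line. The upper 9 rows are the lineage genes and the lower rows are Gad1, Gad2, Slc32a1, Dlx1as and Dlx6os1. S1-4, S1-6 and T1-4 are mostly above and S3-1, S3-4 and T1-3 mostly below the mean, except in the rows of Sst and Npas1.

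Of the GABA synthesis and transport genes, Gad1, Gad2 and Slc32a1 followed the mean profile of the set, from which Sst (r = 0.24) and Npas1 (r = −0.11) stood apart. Gad2 had 136, 80.0, 208 and 142 CPM in T1-1, T1-3, T1-4 and T1-5, and 199, 170, 118 and 78.4 CPM in S1-4, S1-6, S3-1 and S3-4. The group means could hardly be closer, with a log2FC of 0.00 (SE 0.32). Gad1, the other glutamate decarboxylase gene, had 0.39 (SE 0.31), and Slc32a1, which encodes the vesicular GABA transporter, had 0.45 (SE 0.34), neither of them called. Single samples moved both, Gad1 from 0.17 without S3-4 to 0.81 without S1-4, and Slc32a1 from 0.19 without T1-4 to 0.78 without S1-6. With the mean profile of the 9 genes, r over the 8 samples after removal of group means was 0.92 for Gad2, 0.83 for Slc32a1 and 0.70 for Gad1. Abat, which encodes the GABA-degrading transaminase, differed from them in the IUGR group, where its highest value, 137 CPM, was in T1-3. Of the 5 genes of this list, 0 were called by edgeR, 0 had an unadjusted p under 0.05, and the median log2FC was 0.28 (0.16 without S3-4, 0.46 without S1-4, −0.046 against the S1 samples alone and 0.67 against the S3 samples alone). After removal of group means, the 10 tested genes outside the set whose levels followed that profile most closely were Vit, Tox2, Asf1b, Lipg, Asrgl1, Eva1c, Rffl, Dio3, Lrtm2 and Nlk, with r from 0.98 down to 0.94. These r values are the highest of a search over all tested genes with 8 samples, so they are high by that choice. None of these 10 genes was called, and Vit had a log2FC of 0.04 (SE 0.21).

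Other genes of the ganglionic eminences and their derivatives were examined in 7 lists with 75 genes in all, of which 68 were tested. Of the 68, 2 were called higher and 1 lower, against 0.102% and 1.36% of all tested genes, and 13 had an unadjusted p under 0.05 with a higher and 5 with a lower level (4.46% and 6.62% of all tested genes). The median log2FC was 0.13. The 3 called genes are known for expression beyond the interneuron lineage. Otx2, which was listed as a progenitor factor and is also a defining gene of the choroid plexus, was lower in IUGR hippocampi, with means of 42.2 against 102 CPM and no overlap between the groups (log2FC −1.28, SE 0.27, edgeR adjusted p = 0.0482). Zic1 and Zic4 were listed as septal genes and are also expressed in the dorsal midline and the meninges. Of 8 cholinergic and septal genes 5 were tested, all 5 had log2FC values above 0, 3 of them with an unadjusted p under 0.05, and their median of 1.19 was the highest of the 7 lists. Zic1 and Zic4 rose, with log2FC values of 1.19 and 1.08 (SEs 0.24 and 0.22, edgeR adjusted p = 0.0403 for each) and no overlap. These calls lay close to the threshold: of 19 alternative settings Otx2 was called in 5, Zic1 in 9 and Zic4 in 10, and the direction held in each. Zic1 had 911 CPM in T1-3 and 465 to 504 CPM in the other IUGR samples, and 209 to 318 CPM in sham hippocampi. The 8 meningeal fibroblast genes summed to 2761 CPM in T1-3, 76.9 to 775 CPM in the other IUGR samples and 299.5 to 553 CPM in sham samples, and their part in the Zic1 values was not tested. The meningeal sum and Zic1 were 409 and 504 CPM in T1-1, 2761 and 911 in T1-3, 76.9 and 465 in T1-4, and 775 and 470 in T1-5. In sham samples they were 413 and 219 CPM in S1-4, 553 and 318 in S1-6, 400 and 209 in S3-1, and 299 and 284 in S3-4.

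Among progenitor factors other than Otx2, Gsx2 and Olig2 had log2FC values of 0.20 (SE 0.40) and 0.35 (0.34), and Olig1, which is also a gene of oligodendrocyte precursors, had 1.22 (0.39, edgeR adjusted p = 0.203). None of these was called. Over all tested genes of the list, Otx2 among them, log2FC values ran from −1.28 to 1.34. All 5 genes of the oligodendrocyte precursor list, Olig1 and Olig2 among them, had log2FC values above 0, and the part of such cells was not tested. Of the 10 genes of this list, 1 had an unadjusted p under 0.05 with a higher and 1 with a lower level.

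The list of MGE-derived interneuron genes had 13 tested genes, 0 of them called by edgeR, 2 with an unadjusted p under 0.05 and a higher level and 1 with a lower level. The smallest p values belonged to Mef2c (log2FC 1.01, SE 0.27, adjusted p = 0.111) and Cux2 (−0.43, 0.15, adjusted p = 0.243), and both genes are also expressed by excitatory neurons. Sox6 and Satb1, factors of the maturing lineage, had log2FC values of 0.05 (SE 0.18) and 0.15 (SE 0.21). Over all tested genes of this list the values ran from −0.46 to 1.78. The LIM homeodomain gene Lhx8, which acts beside Lhx6 in the MGE and marks cholinergic neurons of the basal forebrain, was chosen after its values were seen. It had 5.85, 20.96, 54.6 and 49.1 CPM in T1-1, T1-3, T1-4 and T1-5, and 8.32, 24.5, 0.71 and 4.56 CPM in S1-4, S1-6, S3-1 and S3-4. T1-4 and T1-5 stood above the sham range while T1-1 was inside it, and the log2FC of 1.78 had a SE of 0.86 (edgeR adjusted p = 0.501). T1-4 and T1-5 were also the highest samples for Nkx2-1.

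Of 11 tested genes of interneurons from the caudal and lateral ganglionic eminences, 0 were called, 3 had an unadjusted p under 0.05 with a higher and 2 with a lower level. Nr2f1, a nuclear receptor gene that is also expressed across the pallium, had a mean of 52.5 CPM in the IUGR group against 121 CPM in the sham group with no overlap, and its log2FC of −1.20 (SE 0.27) had an edgeR adjusted p of 0.0584. For Calb2, which encodes calretinin, the log2FC was 0.87 (SE 0.33, edgeR adjusted p = 0.306). It is also a gene of Cajal-Retzius cells. Of 8 genes listed for those cells, Calb2 among them, 6 had log2FC values above 0 and 2 below. Their median was 0.38, 2 of the 8 had an unadjusted edgeR p under 0.05, and the part of those cells was not tested. For interneuron migration, 11 genes were tested and 0 were called. An unadjusted p under 0.05 was found for 4 with a higher and 1 with a lower level (4.46% and 6.62% of all tested genes). Of these 11 genes, 4 had no overlap between the groups, against 7.14% of all tested genes. Cxcr4, the chemokine receptor gene of migrating interneurons, had 41.4 to 56.7 CPM in the IUGR group against 70.9 to 108 CPM in the sham group. These ranges did not overlap, and its log2FC of −0.66 (SE 0.17) had an edgeR adjusted p of 0.106. Nrg3, a neuregulin gene, also had no overlap, with 9.94 to 18.9 CPM in the IUGR group against 5.49 to 9.10 CPM in the sham group. Its log2FC was 1.03 (SE 0.26, edgeR adjusted p = 0.0959). The median of the migration list was 0.34. The 14 general neuron genes, all with log2FC values above 0, had a median of 0.46 in the same samples. Dcx is in both lists, and how these medians relate was not tested. Of the genes of these lists not called by edgeR, Mef2c, Nr2f1 and Nrg3 were called by DESeq2's Wald test and Nr2f1 by limma-voom.

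Genes of striatal projection neurons, which arise in the lateral ganglionic eminence and do not enter the hippocampus, were measured as a sign of subpallial tissue in the dissections. Of 15 tested genes, 0 were called and 0 had an unadjusted p under 0.05 in edgeR, and their median log2FC was 0.08. Its sign depended on single samples, since it was −0.064 without T1-4, −0.093 without S3-4 and 0.37 without S1-6. Their summed level was 638 to 1255 CPM in the IUGR group against 502 to 1125 CPM in the sham group. Ppp1r1b, which encodes the phosphoprotein DARPP-32 of these neurons, had 6.37, 12.05, 5.14 and 9.28 CPM in T1-1, T1-3, T1-4 and T1-5 and 3.51 to 6.75 CPM in sham samples, with T1-4 the lowest of the IUGR samples (log2FC 0.60, SE 0.31, edgeR adjusted p = 0.569). Isl1, a LIM homeodomain gene of striatal neurons, had 167 CPM in T1-4, 75.7 to 96.7 CPM in the other IUGR samples and 26.0 to 86.0 CPM in sham samples. T1-4 had the highest striatal sum of the 8 samples and was also the highest for 4 of the 9 genes, and the part of striatal tissue in their spread was not tested. Drd1 was not among the genes of the table, whereas Drd2 and Penk were detected in all 8 samples. The glutamatergic neuron list, the check of the labelled tissue, summed to 1404 to 1737 CPM in the IUGR group against 1191 to 2067 CPM in the sham group, with all 13 genes detected in each sample.

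RefSeq promoters on GRCm38.p6 were matched for 7 of the 9 genes and searched for short motifs, with 3 start sites for Lhx6 and none used for Dlx5 and Dlx6. Of the genes that varied together, those with 1 RefSeq start site and a GC box are shown as examples. The stretches of up to 200 bases before the start sites of Dlx2 (chr2:71546755-71546954, minus strand), Sp9 (chr2:73271726-73271924, plus strand) and Nkx2-1 (chr12:56536909-56537108, minus strand) are shown 5′ to 3′, with the GC box GGGCGG or its reverse complement CCGCCC in capitals.
Dlx2: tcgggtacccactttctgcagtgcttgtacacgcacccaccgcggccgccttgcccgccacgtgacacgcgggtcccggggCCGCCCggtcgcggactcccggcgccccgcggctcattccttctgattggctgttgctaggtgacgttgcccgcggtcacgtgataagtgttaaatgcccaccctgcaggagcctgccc
Sp9: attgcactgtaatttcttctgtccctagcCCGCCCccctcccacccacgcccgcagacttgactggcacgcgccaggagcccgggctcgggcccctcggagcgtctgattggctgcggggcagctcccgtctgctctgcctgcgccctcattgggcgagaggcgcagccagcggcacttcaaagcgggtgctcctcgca
Nkx2-1: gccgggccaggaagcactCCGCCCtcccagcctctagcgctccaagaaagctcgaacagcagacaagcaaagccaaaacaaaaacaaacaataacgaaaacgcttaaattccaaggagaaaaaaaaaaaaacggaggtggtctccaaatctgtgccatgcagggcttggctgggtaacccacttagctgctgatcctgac

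Of the 9 stretches of the set 6 hold the GC box, in Dlx2, Sp9, Nkx2-1, Npas1 and at 2 of the 3 Lhx6 start sites, and those of Dlx1, Sst and the other Lhx6 start site do not. The GC box lies at position −119 from the start of Dlx2, −171 from that of Sp9 and −182 from that of Nkx2-1, and it occurs on either strand in 32.7% of the 32851 RefSeq promoter stretches of 250 bases. The homeodomain core TAATTA, which reads the same on both strands, occurs in 4.84% of those stretches and in none of the 9 stretches of the set. For Sst, 30 bases around its cAMP response element TGACGTCA (chr16:23890874-23890903, minus strand) are shown with that element in capitals, because it was the only member without the GC box to hold another searched motif.
Sst: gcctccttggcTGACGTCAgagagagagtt
The element, a palindrome that binds CREB, lies at position −48 from the RefSeq start of Sst and occurs in 1.55% of all stretches. TATAAA and TCAAGTG, also searched on both strands, occur in 12.4% and 2.68% of all stretches and in none of those of the set. These matches describe letters in a window and were not related to the levels above.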

How the data were processed

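Ribosome-depleted, stranded total RNA libraries were sequenced as single reads, 1 per sample. The authors aligned reads to GRCm38 (mm10) and deposited raw counts per gene. The submitters' processing notes name Novoalign 2.8; the counting program, annotation release and strand setting are not given in the sources used here. Identifiers were matched to GENCODE M21, which held 16124 of 16397; 175 rows without a symbol (0.29% of counts) were kept by identifier.

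The 13707 protein-coding genes whose mean count lay between 10 and 50000 were tested with edgeR 4.0.16 in R 4.3.3, by TMM normalization, the quasi-likelihood test and Benjamini-Hochberg adjustment over all of them. Standard errors follow from the F statistic, and 95% intervals from them and the moderated degrees of freedom. CPM used TMM-adjusted library sizes, and log2 CPM a prior count of 2. Levels per kilobase used the union of annotated exons. Alternatives were DESeq2 1.42.0, limma-voom (limma 3.58.1), other normalizations, filters and gene sets, and each sample left out. Scripts were tested on simulated data. The 9 genes and the lists were chosen with earlier results of these data known. Genes named from lists were Gad1, Gad2, Slc32a1, called genes and the 2 smallest p values of each list, and list genes named beyond that rule (Gsx2, Olig2, Sox6, Satb1, Lhx8, Drd2, Penk) were chosen after their values were seen. Some list genes are not reported here.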

Additional observations from a re-analysis of the deposited data

How the results depend on the processing

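Of the 9 genes, 0 were called under each alternative run, although Npas1 was not tested with a mean count of at least 50. Of 89 fits of a single gene under settings that can move its log2FC, left-out samples aside, 82 kept the direction, and the lowest adjusted p was 0.234 (Sst in DESeq2). The 7 reversals, and those of 4 GABA synthesis and transport genes, came from keeping the sham samples of only 1 prefix: with S1 alone the log2 fold changes were −0.33 for Dlx1, −0.45 for Dlx5, −0.23 for Dlx6, −0.086 for Lhx6, −0.041 for Nkx2-1, −0.0067 for Abat, −0.0021 for Slc32a1, −0.046 for Gad1 and −0.38 for Gad2, and with S3 alone 0.45 for Dlx2 and 0.31 for Sp9. With each sample left out in turn, ranges were −0.16 to 0.44 for Dlx1, −0.49 to 0.30 for Dlx2, −0.28 to 0.56 for Dlx5, 0.0055 to 0.60 for Dlx6, −0.027 to 0.58 for Lhx6, 0.07 to 0.76 for Nkx2-1, −0.55 to −0.02 for Sp9, 0.79 to 1.98 for Sst and −0.93 to −0.34 for Npas1. The sign turned for Dlx1 and Dlx5 without T1-4, S3-1 or S3-4, for Dlx2 without S1-6 and for Lhx6 without T1-5. Gad2 ranged from −0.25 to 0.24 and turned without T1-5 (−0.00053), T1-4 (−0.25), S3-1 (−0.076) or S3-4 (−0.20). The number of all genes called was 200, and it was 425 with DESeq2, 328 with limma-voom, 73 with a mean count of at least 50, 0 with S1 alone, 2 with S3 alone and 41 (without S1-4) to 298 (without T1-5) with a sample left out. Otx2, Zic1 and Zic4 were not called with S1 alone, S3 alone, a mean count of at least 50 or any single sham sample left out. List medians were 0.098 for progenitor factors (−0.30 with S1 alone, 0.74 with S3 alone), 0.051 for MGE-derived genes (−0.13, 0.37), 0.033 for CGE- and LGE-derived genes (−0.0066, −0.12), 0.34 for migration genes (0.15, 0.52), 0.28 for GABA genes (−0.046, 0.67), 0.076 for striatal genes (−0.13, 0.49) and 1.19 for cholinergic and septal genes (0.99, 1.27). The cause was not tested. No paired analysis was possible because the names of the groups share only the numbers 1 and 4, 4 occurs in 2 sham samples, and no label ties a number to a shared litter, batch or day. With a sample left out, list medians ran from −0.46 (without T1-4) to 0.53 (without S1-6) for progenitor factors, −0.041 (without S3-1) to 0.30 (without S1-4) for MGE-derived and −0.094 (without S3-1) to 0.12 (without S1-6) for CGE- and LGE-derived genes. Npas1 had 11 to 36 counts per sample.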
